A study of Homo sapiens with 18 samples.

Results

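The 44 genes described here build, fold and export proteins at the endoplasmic reticulum (ER), the compartment where secreted and membrane proteins are made. They were chosen by symbol from 10 roles and were read in each of 3 tables, where they are 44 of 16001 genes for BL-41, 44 of 15365 for Namalwa and 44 of 16787 for Jiyoye. BL-41, Namalwa and Jiyoye are established lines of Burkitt lymphoma, a B cell cancer, and Namalwa and Jiyoye carry Epstein-Barr virus. Messenger RNA was sequenced after a lentiviral vector had delivered a short hairpin RNA (shRNA) against the transcription factor FOXO3, or a scrambled shRNA as control, and transduced cells had been sorted on day 4. Each line has 3 FOXO3 shRNA and 3 scrambled shRNA libraries, which makes 6 groups and 18 libraries, and every library, control ones included, comes from vector-carrying cells of 1 established line. The labels speak of triplicates without saying whether these were separate cultures, so the p-values reflect only the spread between the libraries, which may be technical.

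The authors' deposited table of each line holds 1 normalized value per arm, the log2 fold change of FOXO3 shRNA over scrambled shRNA, a p-value and a DESeq2 adjusted p. No value per library was in these tables, so the arm values below carry no SD. The standard error (SE) beside each fold change is worked back from the p-value that belongs to it, and a gene is called, and said to have risen or fallen, where the DESeq2 adjusted p is under 0.05. FOXO3 itself stood at 544.7 with FOXO3 shRNA and 944.5 with scrambled shRNA in the authors' deposited table of BL-41, at 398.4 and 850.5 in that of Namalwa, and at 384.0 and 471.2 in that of Jiyoye. Its log2 fold change was -0.79 (SE 0.14, DESeq2 adjusted p = 3.15e-07) in BL-41, -1.09 (SE 0.16, adjusted p = 2.49e-09) in Namalwa and -0.30 (SE 0.15, adjusted p = 0.187) in Jiyoye. FOXO3 messenger RNA was therefore reduced in part in BL-41 and Namalwa and was not called in Jiyoye. The B cell markers MS4A1, CD79A, CD79B and PAX5 were all in each table, with MS4A1 lowest in Namalwa at 149.6 with FOXO3 shRNA and 124.0 with scrambled shRNA. Of 8 markers of T, myeloid, fibroblast and epithelial cells, 7, 6 and 7 were listed in BL-41, Namalwa and Jiyoye, COL1A2 in none. They summed to 205.3 with FOXO3 shRNA and 106.4 with scrambled shRNA in BL-41, where LYZ and CD14 rose, to 69.9 and 59.5 in Namalwa, and to 2097 and 3232 in Jiyoye, where CD14 rose and the keratin gene KRT8 fell to 1823, against 2978 with scrambled shRNA. Their part in the results was not tested.

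Proteins enter the ER through a set of machines that act in order. The signal recognition particle binds the first signal sequence of a nascent chain, the SEC61 channel with SEC62, SEC63 and the TRAP complex lets the chain through, and signal peptidase removes the signal. Inside, chaperones led by BiP, the product of HSPA5, and disulphide isomerases fold the chain, COPII coats carry it onward, and ER-associated degradation returns what cannot be folded to the cytosol. When unfolded protein builds up, 3 sensors, IRE1 (gene ERN1), ATF6 and PERK (gene EIF2AK3), start the unfolded protein response, in which IRE1 splices the messenger RNA of the transcription factor XBP1 and released ATF6 enters the nucleus. Secretory B cells, plasma cells above all, depend on the IRE1 and XBP1 arm to enlarge the ER. FOXO3 is a forkhead factor that binds DNA directly.

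The ER stress response element, ERSE, is the promoter sequence through which ATF6 and XBP1 are known to act on chaperone genes. It joins a CCAAT box to the letters CCACG with 9 bases between, and its variant ERSE-II joins ATTGG to CCACG with 1 base between. Both strands were searched in RefSeq promoters of GRCh38.p14, each reaching 250 bases before and 50 bases after a transcript start. A gene can have several, and 39 of the 44 genes had at least 1. ERSE was found in a promoter of 6 of these 39 genes (15.4%), against 25 of all 27305 genes with a promoter (0.0916%), and ERSE-II in that of 3 of 39 (7.69%), against 19 of all genes (0.0696%). Counted by promoter, ERSE was in 27 and ERSE-II in 19 of 35116. The matches are printed below because several chaperone genes, PDIA6 and HERPUD1 share these elements. Promoter letters were not used to choose the genes. The choice did take in chaperone genes, on which these elements are known to act, so the shares are not independent of it. Each line holds 30 bases read 5′ to 3′ on the strand given, with the element in capitals.
HSPA5 ERSE at chr9:125241385-125241414, minus strand: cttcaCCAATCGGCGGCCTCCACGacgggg
HSP90B1 ERSE at chr12:103930211-103930240, plus strand: cctgaCCAATCGGAAGGAGCCACGcttcgg
HSP90B1 ERSE at chr12:103930316-103930345, minus strand: aacccaCCAATCGCGCCGCACCACGcaccc
CALR ERSE at chr19:12938379-12938408, minus strand: caccgaCCAATGATGGTCGACCACGcgtgg
CANX ERSE at chr5:179698773-179698802, plus strand: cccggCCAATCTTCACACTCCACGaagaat
CRELD2 ERSE at chr22:49918549-49918578, minus strand: tatggcCCAATCCGAGTTCGCCACGagagg
PDIA6 ERSE at chr2:10812847-10812876, minus strand: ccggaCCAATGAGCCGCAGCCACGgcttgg
HYOU1 ERSE-II at chr11:119057264-119057293, plus strand: gcgcgtactcATTGGACCACGtcccaggcc
HYOU1 ERSE-II at chr11:119057370-119057399, plus strand: tcggcctgggATTGGACCACGtcacggggc
SDF2L1 ERSE-II at chr22:21642105-21642134, minus strand: gagggttttgATTGGTCCACGcttccgagg
HERPUD1 ERSE-II at chr16:56932016-56932045, plus strand: cggacgccgATTGGGCCACGttgggagagt

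HSPA5, HSP90B1, CALR, CANX, CRELD2 and PDIA6 carry ERSE, and HYOU1, SDF2L1 and HERPUD1 carry ERSE-II. HSP90B1 and HYOU1 hold 2 copies each, and the CANX and PDIA6 matches precede transcript starts that lie inside the annotated gene. A further element, the UPRE with the letters TGACGTGG, was found in the promoters of HYOU1, SEC62, SSR3 and SSR4, which is 4 of 39 genes (10.3%) against 253 of all genes (0.927%). In HYOU1 a UPRE match, read on the other strand, shares the bases CCACG with the ERSE-II printed at chr11:119057370-119057399. The forkhead core TGTTTAC was found in 1 of 39 genes (2.56%), SRP54, against 1145 of all genes (4.19%). Such a match is a description of letters in this window and not a bound site, and a promoter without a match says nothing about the factor.

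Across the group, 11 of 44 genes were called in BL-41 (25.0%, against 28.7% of all genes in that table), 3 in Namalwa (6.82%, against 6.41%) and 11 in Jiyoye (25.0%, against 17.4%). By direction, 2 rose in BL-41 (14.5% of all genes rose) and 9 fell, which is 20.5% against 14.2% of all genes. In Namalwa 1 rose (2.6% of all genes) and 2 fell (3.81% of all genes). In Jiyoye 4 rose (9.09%, against 8.69%) and 7 fell (15.9%, against 8.7%). Against all genes, the share called was thus close to the background in Namalwa and a little under it in BL-41. Most calls in BL-41 and Jiyoye were falls. All 44 genes had a mean arm value of at least 100, and genes at that level were called more often. Of 9884 such genes in BL-41, 1981 rose and 2045 fell. The counts were 372 and 557 of 9671 in Namalwa, and 1285 and 1294 of 10122 in Jiyoye. Against these, the share called was lower in BL-41 and Namalwa and alike in Jiyoye. The share that fell was alike in BL-41 and still higher in Jiyoye. The median log2 fold change of the 44 genes was -0.21 in BL-41 (0.02 over all genes), -0.05 in Namalwa (-0.00) and -0.14 in Jiyoye (0.01). Together the 44 values made up 1.03% of the summed value with FOXO3 shRNA and 1.2% with scrambled shRNA for BL-41, 0.869% and 0.924% for Namalwa, and 0.896% and 1.01% for Jiyoye. In bulk RNA, fewer cells of one kind and less RNA per cell cannot be told apart.

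Calls were shared between lines about as often as among all genes. Of the 44 genes, 5 were called in more than 1 line (11.4%), against 13.1% of the 14549 genes listed in all 3 tables. By number of lines, 25 were called in no line, 14 in 1 line and 4 in 2 lines (ATF6, DERL3, DNAJC3 and SYVN1), while 1, SRP14, was called in all 3. The fold change was above 0 in all 3 lines for 6 genes (DNAJB11, EIF2AK3, PDIA3, SPCS1, SRP14 and SRP54), which is 13.6% against 25.7% of all genes. It was below 0 in all 3 for 19 (43.2%, against 24.5%) and of mixed sign for 19. SYVN1 is the gene of this group that fell in one line, BL-41, and rose in another, Jiyoye.

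**Figure D1:**
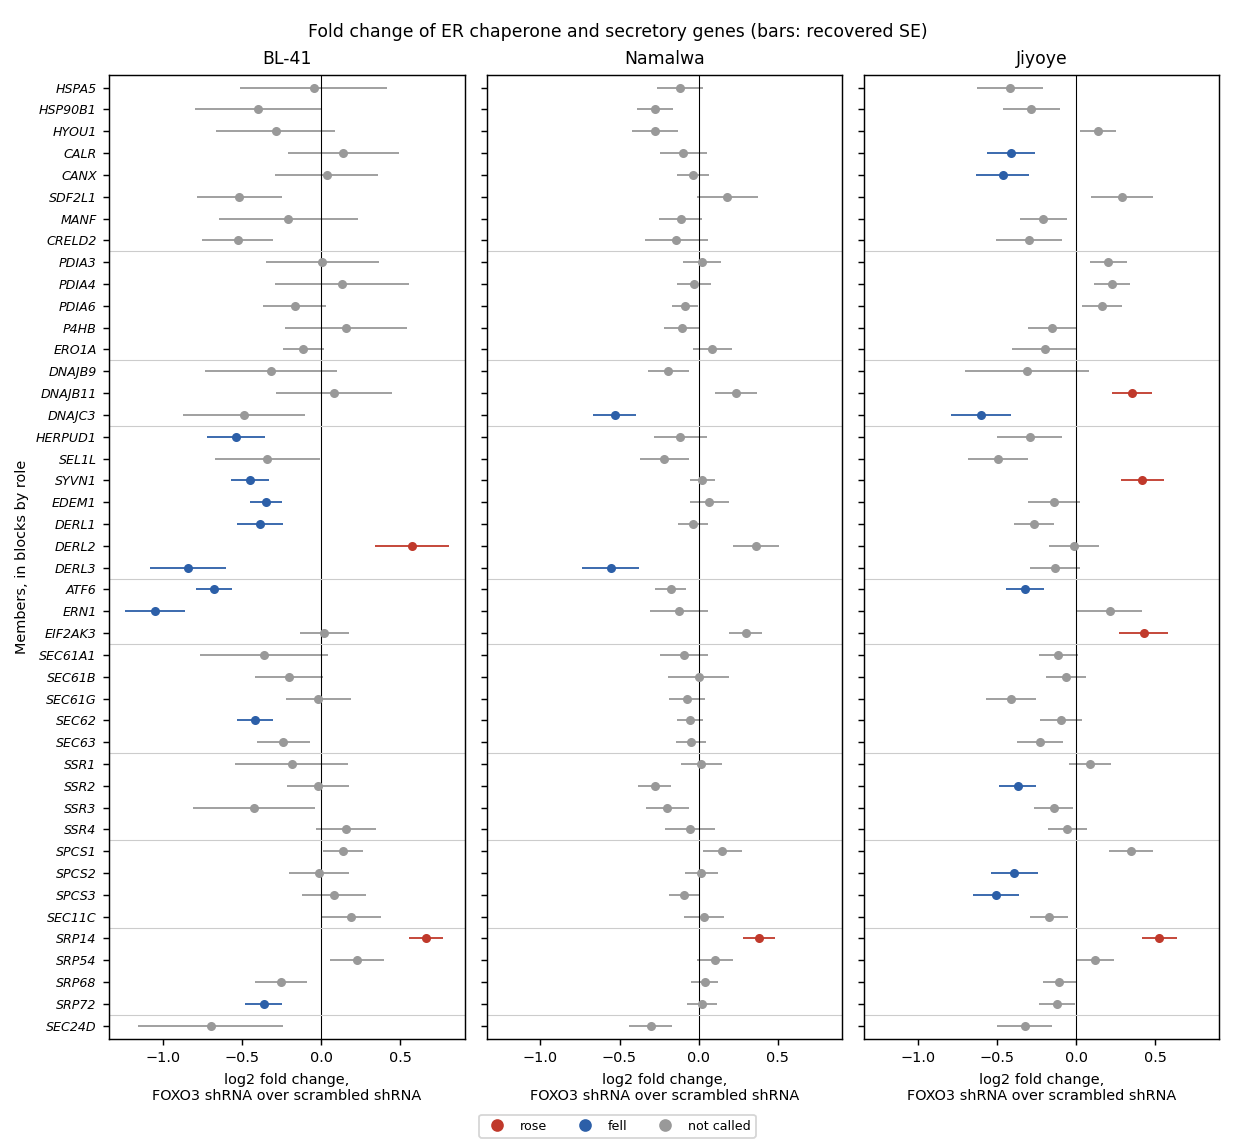
Log2 fold change of FOXO3 shRNA over scrambled shRNA for the 44 genes, in blocks by role, with the 3 lines side by side. Points are the authors' fold changes, bars the recovered SE, red genes that rose, blue genes that fell and grey genes not called. SRP14 lies to the right in every line, and the bars of the chaperone and isomerase blocks are widest in BL-41.

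The deepest fall of the group was that of a stress sensor in BL-41, where 2 of the 3 sensors fell (14.2% of all genes fell). ERN1 (chr17:64039142-64130144) stood at 1484 with FOXO3 shRNA and 3068 with scrambled shRNA in the authors' deposited table of BL-41, at 1052 and 1148 in Namalwa, and at 986.5 and 851.7 in Jiyoye. As a description only, since the lines were normalized separately, its control value in BL-41 was the highest of the 6 arms. The FOXO3 shRNA value of ERN1 in BL-41 came closer to its values in the other lines. The log2 fold change was -1.05 (SE 0.19, DESeq2 adjusted p = 7.87e-07) in BL-41, and the gene was not called in Namalwa (-0.13, SE 0.18, adjusted p = 0.864) or Jiyoye (0.21, SE 0.20, adjusted p = 0.585). ATF6 (chr1:161766320-161964070) had 1212 and 1941 in the FOXO3 shRNA and scrambled arms of BL-41, 1739.6 and 1968 in Namalwa, and 1130.2 and 1416 in Jiyoye, per the authors' deposited table of each line. It fell in BL-41 by 0.68 on the log2 scale (SE 0.11, DESeq2 adjusted p = 6.49e-08) and in Jiyoye by 0.33 (SE 0.12, adjusted p = 0.0415), and it had -0.18 in Namalwa (SE 0.10, adjusted p = 0.337). EIF2AK3, the kinase that lowers translation in the response, was called in the other direction. In the authors' deposited table of Jiyoye it rose to 1007 with FOXO3 shRNA, against 747.8 with scrambled shRNA (log2 fold change 0.43, SE 0.16, DESeq2 adjusted p = 0.0367). Its fold change was 0.30 (SE 0.10, adjusted p = 0.0593) in Namalwa and 0.02 (SE 0.15, adjusted p = 0.956) in BL-41, neither of them called.

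ER-associated degradation was the role with the most calls in BL-41, where 5 of 7 genes fell and 1 rose. Of all genes there, 14.2% fell and 14.5% rose, and of 9884 with a mean of at least 100, 2045 fell and 1981 rose. Its median log2 fold change was -0.39 for BL-41, -0.04 for Namalwa and -0.14 for Jiyoye. SYVN1 (chr11:65127279-65134519), the ubiquitin ligase also known as HRD1, had 5584 with FOXO3 shRNA and 7622 with scrambled shRNA in the authors' deposited table of BL-41 (log2 fold change -0.45, SE 0.12, DESeq2 adjusted p = 0.00147). In Jiyoye the direction was turned round, with 4246 for FOXO3 shRNA against 3174 for scrambled shRNA in the authors' deposited table (0.42, SE 0.14, adjusted p = 0.0173). Namalwa lay between, at 8638 with FOXO3 shRNA and 8506 with scrambled shRNA in its table (0.02, SE 0.08, adjusted p = 0.931). SEL1L, the partner that keeps SYVN1 stable, was called in no line: its log2 fold changes were -0.34 (SE 0.33) in BL-41, -0.22 (SE 0.15) in Namalwa and -0.50 (SE 0.19, DESeq2 adjusted p = 0.0516) in Jiyoye. The ligase and its partner therefore had fold changes of opposite sign in Jiyoye.

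The derlins, membrane proteins of the degradation channel, were called in opposite directions in BL-41, where DERL1 and DERL3 fell and DERL2 rose. DERL3 (chr22:23834503-23839006) fell to 253.6 with FOXO3 shRNA, against 454.7 with scrambled shRNA, in the authors' deposited table of BL-41, and to 495.8, against 729.3, in that of Namalwa. These are log2 fold changes of -0.84 (SE 0.24, DESeq2 adjusted p = 0.00261) and -0.56 (SE 0.18, adjusted p = 0.0351), and in Jiyoye it was -0.13 (SE 0.16, adjusted p = 0.695). DERL2 had 475.5 with FOXO3 shRNA and 319.9 with scrambled shRNA in BL-41 in the authors' deposited table (0.57, SE 0.23, adjusted p = 0.0487), close to the threshold. It had 0.36 (SE 0.14, adjusted p = 0.123) in Namalwa and -0.01 (SE 0.16) in Jiyoye. DERL1 fell in BL-41 (1450.3 with FOXO3 shRNA and 1898 with scrambled shRNA in the authors' deposited table, log2 fold change -0.39, SE 0.14, adjusted p = 0.0277) and was -0.04 (SE 0.09) in Namalwa and -0.26 (SE 0.13, adjusted p = 0.143) in Jiyoye.

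HERPUD1 and EDEM1 completed the falls in BL-41. HERPUD1, a scaffold of the ligase complex whose promoter carries the ERSE-II printed above, had 4845 and 7030.0 in the FOXO3 shRNA and scrambled arms of the authors' deposited table (-0.54, SE 0.18, DESeq2 adjusted p = 0.0144). EDEM1, a lectin-like protein that hands over misfolded glycoproteins, had 13733 with FOXO3 shRNA and 17490.2 with scrambled shRNA in the same table (-0.35, SE 0.10, adjusted p = 0.00317). Neither was called elsewhere: HERPUD1 had -0.12 (SE 0.17) in Namalwa and -0.29 (SE 0.21) in Jiyoye, and EDEM1 had 0.07 (SE 0.12) and -0.14 (SE 0.17) in these lines.

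**Figure D2:**
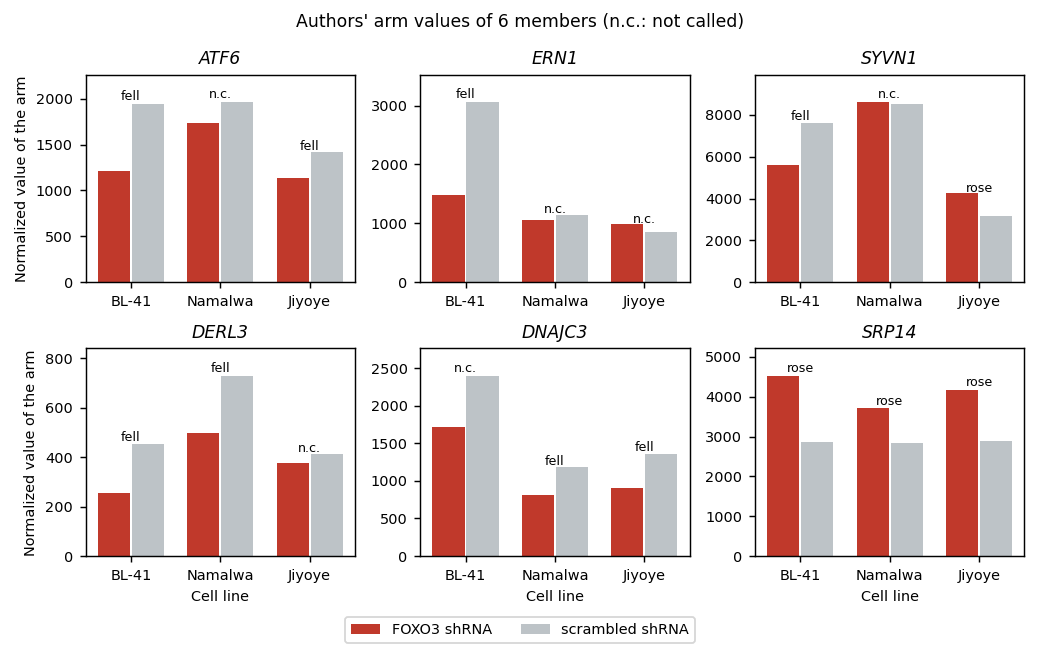
Authors' normalized value of each arm for 6 genes in the 3 lines, with FOXO3 shRNA bars in red left of scrambled shRNA bars in grey and the call written above each pair (n.c., not called). There are no error bars because each table gives 1 value per arm. The ERN1 pair differs most in BL-41, at 1484 with FOXO3 shRNA and 3068 with scrambled shRNA, and the red SRP14 bar is the higher of its pair in all 3 lines.

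Chaperones and disulphide isomerases, the bulk of the folding machinery, gave few calls. None of the 8 chaperones was called in BL-41 or Namalwa (1 in each line at an unadjusted p under 0.05), and 2 fell in Jiyoye. Their median log2 fold change was -0.25 for BL-41, -0.12 for Namalwa and -0.29 for Jiyoye. CALR, a lectin chaperone of the ER lumen, had 12981 with FOXO3 shRNA and 17262 with scrambled shRNA in the authors' deposited table of Jiyoye (-0.41, SE 0.15, DESeq2 adjusted p = 0.0424). Its membrane-bound relative CANX had 8608 with FOXO3 shRNA and 11875 with scrambled shRNA in the same table (-0.46, SE 0.17, adjusted p = 0.0374). Both are on the other side of 0 in BL-41, with wide errors: CALR had 0.14 (SE 0.35) and CANX 0.03 (SE 0.33). In Namalwa they had -0.10 (SE 0.15) and -0.04 (SE 0.10).

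HSPA5 (chr9:125234853-125241343), the classical readout of the unfolded protein response, was called in no line. The authors' deposited tables give it 12559.9 with FOXO3 shRNA and 12987 with scrambled shRNA for BL-41, 6222 and 6762 for Namalwa, and 8308 and 11105 for Jiyoye. The 95% interval of its log2 fold change was -0.96 to 0.86 for BL-41, -0.40 to 0.16 for Namalwa and -0.83 to -0.01 for Jiyoye. A change of nearly 1 log2 unit in either direction is therefore inside the BL-41 interval. HSP90B1, the ER form of HSP90, likewise had an interval from -1.18 to 0.38 in BL-41, with fold changes of -0.40, -0.27 and -0.28 in BL-41, Namalwa and Jiyoye. The rest of the chaperones gave fold changes of -0.29, -0.28 and 0.14 for HYOU1, an exchange factor of BiP, and -0.52, 0.18 and 0.29 for SDF2L1, a partner of DNAJB11, in the same order of lines. MANF, a secreted stress protein that binds BiP, had -0.21, -0.11 and -0.21, and CRELD2, a stress-induced secreted protein, had -0.53 (DESeq2 adjusted p = 0.0618), -0.14 and -0.30.

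None of the 5 disulphide genes was called in any line, with 0, 0 and 1 of them at an unadjusted p under 0.05 in BL-41, Namalwa and Jiyoye. The share of all genes called was 28.7%, 6.41% and 17.4% in these lines. PDIA3, PDIA4, PDIA6 and P4HB are isomerases, and ERO1A is the oxidase that recharges them. Their fold changes ran from -0.20 to 0.23 across the 3 lines. The gene at the unadjusted threshold was PDIA4 in Jiyoye, with 2576 and 2202 in the FOXO3 shRNA and scrambled arms of the authors' deposited table (0.23, SE 0.11, DESeq2 adjusted p = 0.166).

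The J proteins, which hand substrates to BiP, split by member. DNAJC3 (chr13:95677139-95794988), also an inhibitor of PERK, had 819.1 with FOXO3 shRNA and 1183 with scrambled shRNA in the authors' deposited table of Namalwa, and 900.2 and 1364 in that of Jiyoye. It fell in both, by 0.53 (SE 0.13, DESeq2 adjusted p = 0.00316) and 0.60 (SE 0.19, adjusted p = 0.0144) on the log2 scale. In BL-41 its estimate was of like size, -0.49, with an SE of 0.38 and an adjusted p of 0.401. BL-41 and the other lines did not differ past the test for DNAJC3: the difference was 0.04 from Namalwa (95% interval -0.76 to 0.84) and 0.11 from Jiyoye (-0.73 to 0.95). DNAJB11 rose in Jiyoye, with 2098 for FOXO3 shRNA and 1641 for scrambled shRNA in the authors' deposited table (0.35, SE 0.12, DESeq2 adjusted p = 0.0302), and had 0.08 (SE 0.37) in BL-41 and 0.24 (SE 0.13) in Namalwa. DNAJB9, known as a repressor of IRE1, had -0.32 (SE 0.42), -0.19 (SE 0.13) and -0.31 (SE 0.39) in BL-41, Namalwa and Jiyoye.

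The wide errors in BL-41 sat on a defined set of genes. Among the 4077 genes of BL-41 with a mean arm value of at least 1000, the median recovered SE was 0.124 and the 99th percentile 0.216. An SE over 0.3 was found in 37 of them (0.908%), and 16 of these 37 are genes of the group described here. That is 16 of its 37 genes at that level (43.2%), against 21 of 4040 other genes (0.52%) and 6 of 80 other ER genes from the lists given further on (7.5%). No gene at that level lay between 0.217 (PPP1R15A) and 0.326 (CANX), so the limit of 0.3, chosen after the values were seen, falls in a gap. The 16 genes are HSPA5, HSP90B1, HYOU1, CALR, CANX, MANF, PDIA3, PDIA4, P4HB, DNAJB11, DNAJC3, SEL1L, SEC61A1, SSR1, SSR3 and SEC24D, and DNAJB9 joins them at a mean of at least 100. HSPA5, at 0.466, had the second highest SE of all 4077 genes.

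The same 17 genes had smaller errors in the other lines. Against an SE of 0.326 to 0.466 (median 0.385) in BL-41, they had 0.101 to 0.153 (median 0.134) in Namalwa. In Jiyoye they had 0.113 to 0.391 (median 0.150), and DNAJB9 alone was over 0.3. None of the 36 genes of the group with a mean of at least 1000 was over 0.3 in Namalwa or in Jiyoye, against 0.394% and 1.34% of all genes at that level. In BL-41 the 17 had log2 fold changes from -0.70 to 0.16 and none was called (DESeq2; 0 of them at an unadjusted p under 0.05), while 11 of the other 27 genes were called. All calls of the group in BL-41 thus lay among the 27 genes with smaller errors. Of all 9884 genes with a mean of at least 100 there, 1981 rose and 2045 fell. An SE over 0.3 did not by itself exclude a call. Outside the group, GCSAM (-1.60), FAM129C (-1.82), SLC43A1 (-1.23) and MZB1 (-0.95) had such an SE in BL-41 and fell. Among the 17, PDIA3 (0.01), CANX (0.03) and HSPA5 (-0.05) had fold changes near 0, and SEC24D (-0.70) had the lowest. The tables do not show which library or which arm carries the spread.

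**Figure D3:**
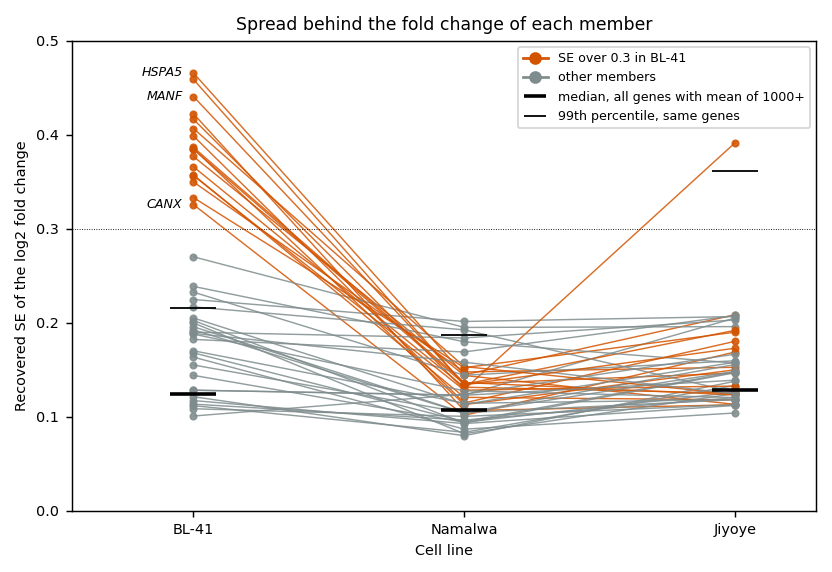
Recovered SE of the log2 fold change for each of the 44 genes in the 3 lines, joined by a line per gene, with genes over 0.3 in BL-41 in orange. Thick and thin ticks mark the median and the 99th percentile over every gene whose mean arm value was 1000 or more. The 17 orange genes lie at 0.326 to 0.466 in BL-41 and, in Namalwa, between 0.101 and 0.153.

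The promoter elements printed above follow this split only in part. Of the 9 genes with ERSE or ERSE-II, 7 had a mean of at least 1000 in BL-41 and 5 of the 7 had an SE over 0.3, against 9 of 26 genes of the group with a promoter and no such match. Among genes outside the group with either element, 0 of 7 at that level were over 0.3. PDIA6 and HERPUD1 are the 2 carriers under the limit, with SE of 0.20 and 0.18. The median log2 fold change of the 9 carriers was -0.29 for BL-41 with 1 fall, -0.12 for Namalwa with 0 calls (DESeq2) and -0.29 for Jiyoye with 2 falls.

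At the translocation channel, 1 of 5 genes was called in BL-41 and none in the other lines (0 in Namalwa and 1 in Jiyoye at an unadjusted p under 0.05). SEC62, which helps short secretory proteins through the channel, fell to 5473 with FOXO3 shRNA, against 7313 with scrambled shRNA, in the authors' deposited table of BL-41 (-0.42, SE 0.11, DESeq2 adjusted p = 0.00128). Its fold changes in Namalwa and Jiyoye were -0.05 (SE 0.08) and -0.10 (SE 0.13). The channel subunits SEC61A1, SEC61B and SEC61G, and SEC63, gave fold changes below 0 in all 3 lines and were not called. The lowest, SEC61G in Jiyoye, came nearest to the threshold (-0.41, SE 0.16, adjusted p = 0.0514).

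In the TRAP complex, which assists the channel, SSR2 fell in Jiyoye to 3887, against 5019.6 with scrambled shRNA, in the authors' deposited table (-0.37, SE 0.12, DESeq2 adjusted p = 0.0144). It had -0.28 (SE 0.10, adjusted p = 0.0907) in Namalwa and -0.02 (SE 0.20) in BL-41. SSR1, SSR3 and SSR4 were called in no line, with values from -0.43 to 0.16. No TRAP gene was called in BL-41 (0 of 4 at an unadjusted p under 0.05) or in Namalwa (1 of 4), where 28.7% and 6.41% of all genes were called. The 1 fall in Jiyoye stands beside 8.7% of all genes that fell there.

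Among the 4 signal peptidase genes of this group, the calls were 2 falls in Jiyoye. In that line 8.7% of all genes fell, and 1294 of 10122 with a mean of at least 100. SPCS3 had 2079 with FOXO3 shRNA and 2949 with scrambled shRNA in the authors' deposited table (-0.50, SE 0.15, DESeq2 adjusted p = 0.00594). SPCS2 had 980.2 with FOXO3 shRNA and 1284 with scrambled shRNA (-0.39, SE 0.15, adjusted p = 0.0492) in the same table. The accessory subunit SPCS1 pointed the other way and was not called (0.35, SE 0.14, adjusted p = 0.0661), and the catalytic SEC11C had -0.17 (SE 0.12). None of the 4 passed an unadjusted p of 0.05 in BL-41 or Namalwa. SEC11A, a signal peptidase gene counted further on among the other targeting genes, rose in BL-41. It had 3550 with FOXO3 shRNA and 2577 with scrambled shRNA in the authors' deposited table of that line (0.46, SE 0.14, DESeq2 adjusted p = 0.00443). SEC11A was not called in Namalwa (0.12, adjusted p = 0.556) or Jiyoye (-0.20, adjusted p = 0.333). The differences of SPCS3 from Jiyoye did not pass the test between lines: they were 0.58 (SE 0.25, Benjamini-Hochberg adjusted p = 0.155) for BL-41 and 0.41 (SE 0.17, adjusted p = 0.226) for Namalwa.

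SRP14 was the gene of the group called in every line, and it rose in each. SRP14 (chr15:40035690-40039202) codes for a subunit of the Alu domain, the end of the signal recognition particle that slows translation. The authors' deposited tables give it 4533 with FOXO3 shRNA and 2864 with scrambled shRNA for BL-41, 3713 and 2848 for Namalwa, and 4176 and 2897 for Jiyoye. As a description across separately normalized lines, the 3 control values lie close together and all 3 FOXO3 shRNA values lie above them. The log2 fold changes were 0.66 (SE 0.11, DESeq2 adjusted p = 3.55e-08), 0.38 (SE 0.10, adjusted p = 0.00482) and 0.53 (SE 0.11, adjusted p = 7.09e-05) in BL-41, Namalwa and Jiyoye. None of the 3 differences between lines passed the test, the largest being 0.28 for BL-41 minus Namalwa (95% interval -0.01 to 0.57). RefSeq names 5 pseudogenes after SRP14, so reads may have been shared between near-identical copies and its values are uncertain to that extent. The other uncertain genes in this respect are SPCS2 with 4 such pseudogenes, SRP68 with 3, PDIA3, SEC63, SSR1 and SRP72 with 2, and HSPA5, SEC61G and SSR4 with 1.

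The binding partner of SRP14 did not share its rise. SRP9, which forms the Alu domain with SRP14, fell to 3110.0 with FOXO3 shRNA, against 4267 with scrambled shRNA, in the authors' deposited table of BL-41, and to 3935, against 5814, in that of Jiyoye. These are log2 fold changes of -0.46 (SE 0.12, DESeq2 adjusted p = 0.000759) and -0.56 (SE 0.14, adjusted p = 0.000768), and in Namalwa it had 0.12 (SE 0.09, adjusted p = 0.637). Of the remaining particle genes, SRP72 fell in BL-41, with 3572 for FOXO3 shRNA and 4599 for scrambled shRNA in the authors' deposited table (-0.36, SE 0.12, adjusted p = 0.00907), and had 0.02 (SE 0.09) in Namalwa and -0.12 (SE 0.11) in Jiyoye. SRP54, the signal-binding subunit with the forkhead letters in its promoter, had 0.23 (SE 0.17), 0.10 (SE 0.11) and 0.12 (SE 0.12), and SRP68 had -0.25 (SE 0.16), 0.04 (SE 0.09) and -0.11 (SE 0.10), all uncalled. SEC24D, the cargo adaptor of the COPII coat, was called in no line. In BL-41 it had 967.1 with FOXO3 shRNA and 1571 with scrambled shRNA in the authors' deposited table, a fold change of -0.70 whose SE of 0.46 left it at an adjusted p of 0.282, with -0.30 (SE 0.13) in Namalwa and -0.33 (SE 0.17) in Jiyoye.

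The test of the difference between 2 lines set each pair of fold changes against their joint SE, with Benjamini-Hochberg adjustment over all genes in both tables. For BL-41 minus Namalwa, 3 of 44 genes passed (6.82%, against 7.01% of all genes), for BL-41 minus Jiyoye 2 (4.55%, against 6.25%), and for Namalwa minus Jiyoye 0, against 2.75% of all genes. At an unadjusted p under 0.05 the counts were 8, 7 and 5, and the smallest adjusted p for Namalwa minus Jiyoye was 0.187. These shares are at or below the background. ERN1 differed by -0.92 (SE 0.26, adjusted p = 0.0136) from Namalwa and by -1.26 (SE 0.28, adjusted p = 0.000569) from Jiyoye. SYVN1 differed by -0.47 (SE 0.14, adjusted p = 0.0247) and -0.87 (SE 0.18, adjusted p = 0.000259) in the same order, and ATF6 by -0.50 (SE 0.15, adjusted p = 0.0183) from Namalwa. The ATF6 difference from Jiyoye was -0.35 (SE 0.17, adjusted p = 0.205) and did not pass. With an SE 1.5 times larger none of these 5 differences passed. The fold change of FOXO3 itself was not of the same size in the 3 lines, and its part in these differences was not tested.

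**Figure D4:**
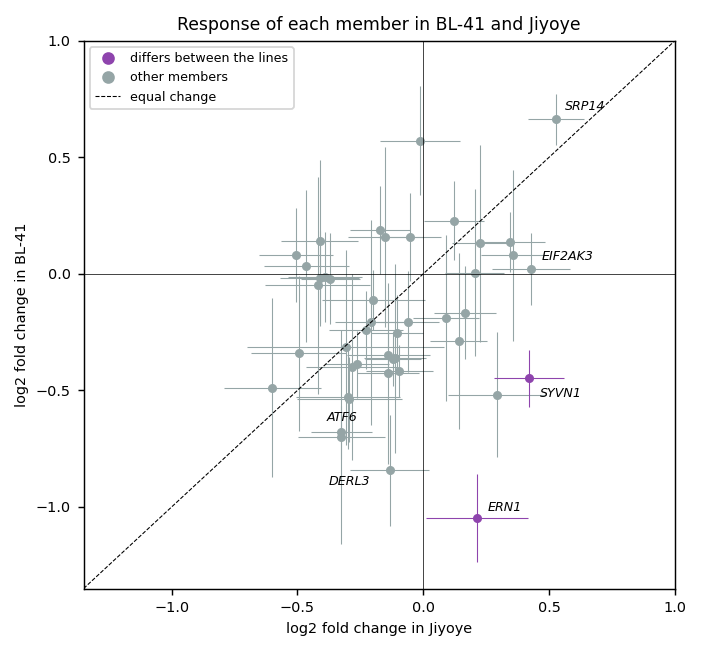
Log2 fold change of each of the 44 genes in BL-41 (vertical) against Jiyoye (horizontal), with bars of 1 recovered SE and a dashed line of equal change. ERN1 and SYVN1, in purple, are the genes whose difference between these lines passed the test, and both lie below the dashed line on the lower right.

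Levels were set side by side per kilobase of gene length, with each arm's summed value scaled to 1000000. The tables were normalized separately, so levels between lines are a description. The median of the 44 genes was 52.7 with FOXO3 shRNA and 68.7 with scrambled shRNA for BL-41, 53.2 and 56.6 for Namalwa, and 47.3 and 48.9 for Jiyoye, where all genes had 5.06 and 5.54, 5.65 and 6.10, and 4.93 and 5.28. The median of the group was thus well above that of all genes in each arm, although 1 of its genes in each BL-41 arm and 2 in each Namalwa arm lay below the median of all genes. On this scale the highest in BL-41 was SSR2 with FOXO3 shRNA (295.6) and HSP90B1 with scrambled shRNA (317.2), in Namalwa SSR2 in both arms (232.2 and 285.4), and in Jiyoye CALR in both arms (389.4 and 524.4). The lowest in BL-41 was DERL3 with FOXO3 shRNA (4.54) and DERL2 with scrambled shRNA (4.25). In Namalwa it was DERL2 in both arms (3.89 and 3.06), and in Jiyoye CRELD2 with FOXO3 shRNA (5.23) and ERN1 with scrambled shRNA (6.31). ERN1 had levels of 10.2 with FOXO3 shRNA and 21.8 with scrambled shRNA in BL-41, against 7.25 and 8.01 in Namalwa and 7.22 and 6.31 in Jiyoye.

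**Figure D5:**
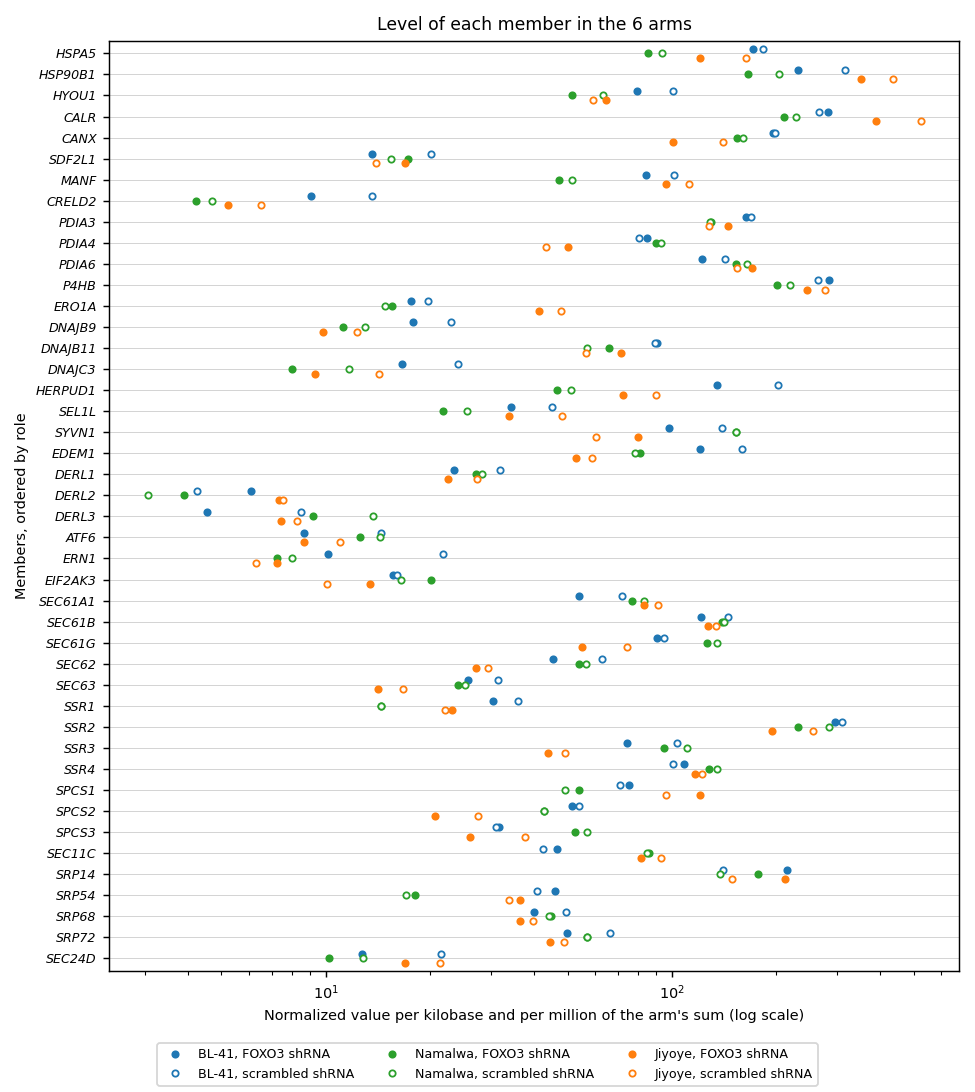
Level of each gene in the 6 arms, as normalized value per kilobase of gene length with each arm's sum scaled to 1000000, on a log axis, with filled points for FOXO3 shRNA, open points for scrambled shRNA and a colour for each line. Levels reach from 3.06 (DERL2) to 524.4 (CALR), and the open BL-41 point of ERN1, at 21.8, stands apart from its other points.

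Other genes of the pathway were counted in 8 lists of ER genes, 112 in all. In BL-41 12 rose and 23 fell (31.2% called, against 28.7% of all genes), in Namalwa 3 rose and 8 fell (9.82%, against 6.41%), and in Jiyoye 11 rose and 21 fell (28.6%, against 17.4%). Most of them had a mean of at least 100 (110, 110 and 111 in BL-41, Namalwa and Jiyoye). Genes at that level were called more often than all genes, by the counts given above. The downstream factors of the sensors gave 1 rise and 6 falls of 12 in BL-41 (median -0.35), 2 falls in Namalwa (median -0.03) and 2 falls in Jiyoye (median -0.11). XBP1, the target of IRE1, fell to 7860.4 with FOXO3 shRNA, against 12134 with scrambled shRNA, in the authors' deposited table of BL-41 (-0.63, SE 0.14, DESeq2 adjusted p = 0.00016) and to 3761, against 4929, in that of Jiyoye (-0.39, adjusted p = 0.0323), and had 0.01 in Namalwa (adjusted p = 0.98). These are totals over spliced and unspliced XBP1, which the tables do not separate. ATF6B, a close relative of ATF6, fell in all 3 lines (-0.66, -0.39 and -0.40 with adjusted p of 1.31e-06, 0.00104 and 0.0159), CREB3L2 fell in BL-41 (-0.61) and Namalwa (-0.38), and TRIB3, a pseudokinase gene of the stress response, fell in BL-41 (-0.95, adjusted p = 1.02e-07).

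Folding factors outside the 44 genes fell more often than they rose. Of 20, 1 rose and 6 fell in BL-41 (median -0.29), 3 fell in Namalwa (median -0.17), and 2 rose and 9 fell in Jiyoye (median -0.17). Over all genes, 14.2%, 3.81% and 8.7% fell in BL-41, Namalwa and Jiyoye. ERO1B, the second ER oxidase, fell in all 3 lines, by 1.05, 0.73 and 0.56 on the log2 scale (DESeq2 adjusted p of 6.24e-05, 0.000578 and 0.000545 in BL-41, Namalwa and Jiyoye). The isomerase PDIA5 also fell in all 3 (-0.98, -0.50 and -0.62), as did the prolyl isomerase FKBP11 (-1.02, -0.53 and -0.60). SIL1, an exchange factor of BiP, fell in BL-41 (-1.03, adjusted p = 1.86e-06), and the thioredoxin-like TXNDC5 fell in Jiyoye (-0.66, adjusted p = 9.36e-06). ERO1A, the oxidase among the 44 genes, was called in no line.

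The other lists were mixed, with medians between -0.09 and 0.14 in every line. Other degradation genes gave 2 rises and 5 falls of 19 in BL-41, 2 falls in Namalwa, and 2 rises and 2 falls in Jiyoye, led by the ubiquitin-conjugating enzymes UBE2J1 in BL-41 (-0.77) and UBE2G2 in BL-41 (-0.63) and Jiyoye (-0.82). Of 9 other targeting genes, 2 rose and 1 fell in BL-41, 1 rose in Namalwa, and 1 rose and 1 fell in Jiyoye. The receptor subunit SRPRA rose in Namalwa (0.45, DESeq2 adjusted p = 0.00345) and Jiyoye (0.57, adjusted p = 2.86e-05), and in BL-41 it had 0.62 with an SE of 0.36 (adjusted p = 0.209), one more wide error there. Oligosaccharyltransferase gave 1 fall of 11 in BL-41, no call in Namalwa (1 at an unadjusted p under 0.05) and 2 rises and 2 falls in Jiyoye, with OSTC at -0.59 and RPN1 at 0.39. COPII and exit genes gave 3 rises and 1 fall of 17 in BL-41, 1 rise in Namalwa, and 2 rises and 3 falls in Jiyoye, with MCFD2 lowest at -0.78 in Jiyoye and SAR1B at 0.53 in Namalwa. Of 10 COPI and KDEL receptor genes, 1 rose and 1 fell in BL-41, 1 fell in Namalwa and none was called in Jiyoye (4 at an unadjusted p under 0.05). KDELR1, a retrieval receptor, rose in BL-41 (0.72, adjusted p = 9.44e-10). Membrane insertion genes gave 2 rises and 2 falls of 14 in BL-41, 1 rise in Namalwa and 2 rises and 2 falls in Jiyoye, and EMC8 rose in all 3 lines (0.65, 0.61 and 0.64).

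The list of cytosolic and mitochondrial chaperones gave rises, all of cytosolic genes, and no fall in BL-41. The mitochondrial HSPD1 (0.19, DESeq2 adjusted p = 0.156) and HSPE1 (0.20, adjusted p = 0.287) were not called in that line. In all, 7 of 12 genes rose there (14.5% of all genes rose) and none fell (median 0.88). The rises were led by HSPH1 (1.30), HSPA8 (0.91) and HSPB1 (0.86), the DESeq2 adjusted p of each being 3.29e-11, 1.8e-07 and 2.07e-07. In Namalwa none of 11 was called (5 at an unadjusted p under 0.05, median 0.23), and in Jiyoye 2 of 12 rose (median 0.11), HSPB1 by 0.67 and HSPA4 by 0.34. Among 4 genes of antibody secretion (medians -0.63, -0.44 and -0.34), JCHAIN fell in BL-41 (-1.42, adjusted p = 5.45e-16), MZB1, an ER cochaperone of B cells, fell in BL-41 (-0.95, SE 0.33, adjusted p = 0.0165) and Namalwa (-0.61, adjusted p = 0.000713), and IRF4, a regulator of plasma cells, rose in BL-41 (0.54) and fell in Namalwa (-0.42) and Jiyoye (-1.50).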

How the data were processed

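Oligo-dT libraries were made from sorted cells, per the labels' protocols. The series' design text names SOAPnuke for read filtering. Bowtie2, RSEM, DESeq2 and the hg38 genome are listed, with no version, in the submitters' processing notes. Each line has 1 table, in which the authors deposited a gene length, 1 normalized signal value per arm, a log2 fold change, a p-value and an adjusted p-value. The ratio of the deposited arm values equals the deposited fold change (largest gap 1.39e-14 on the log2 scale), so arm values need not be plain group means, and Benjamini-Hochberg adjustment of the deposited p-values returns the deposited adjusted p-values (largest gap 3.56e-15). The tables hold no column per library, so each arm column was mapped to its group. The depth of each library is not given in the sources used here; the arm values summed to between 17065755 and 18459745. Whether counting used strand is not given either, so overlapping and antisense genes cannot be told apart.

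The tests planned on values per library could not be run, so calls are the authors' DESeq2 adjusted p-values under 0.05 over each whole table. The SE is the size of the fold change divided by the normal quantile that p corresponds to, which takes the p-value to be a two-sided Wald test. Differences between lines were tested with a two-sided z test over all genes in both tables. This step was also run on simulated fold changes drawn with the same recovered SE. That run cannot show whether these SE hold for 3 libraries per arm. Gene sets and levels are described without a test. Levels divide the arm value by the gene length and by the arm's sum. Motifs were searched on both strands in the RefSeq promoters and counted per gene, and overlap between motifs was not resolved. Coordinates are those of RefSeq on GRCh38.p14. Genes called in at least 1 line are given with both arm values, fold change, SE and adjusted p, the rest by values or ranges, and each other list by up to 3 genes with the smallest adjusted p in a line. PPP1R15A was named after its value was seen. The 44 genes and the lists were chosen with earlier results of these data known. Protein sequences were not used here. The tools were scipy 1.17.1, pandas 2.3.3 and numpy 2.4.6 under Python 3.11.15, with matplotlib 3.10.9 for the plots.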

Additional observations from a re-analysis of the deposited data

Results flagged for a closer look

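The response to FOXO3 shRNA differed between lines, by the test of the difference itself, in 5 comparisons that involve 3 genes. The log2 fold change of ERN1 in BL-41 was lower than in Namalwa by a difference of -0.92 and lower than in Jiyoye by a difference of -1.26. For SYVN1 the difference was -0.47 from Namalwa and -0.87 from Jiyoye, where the gene rose. For ATF6 it was -0.50 from Namalwa. All 5 compare BL-41 with another line, and no difference between Namalwa and Jiyoye passed (5 of 44 genes at an unadjusted p under 0.05). With an SE 1.5 times larger none of the 5 passed, and the 3 from Namalwa did not pass at an adjusted p under 0.01.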

How the results depend on the processing

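No paired analysis was possible because the tables hold 1 value per arm and no value per library. For the same reason leaving out each replicate, a fit with a replicate block and TMM in place of the DESeq2 size factors were not run. With an adjusted p under 0.01, 1 gene rose in BL-41, 1 fell in Namalwa, and 1 rose and 1 fell in Jiyoye. At that limit ERN1, ATF6, SEC62, SYVN1, DERL3, EDEM1 and SRP72 still fell in BL-41, and SRP14 still rose in Namalwa. Between lines, 0 genes differed for BL-41 and Namalwa, while ERN1 and SYVN1 still differed for BL-41 and Jiyoye. Asking for changes of 0.5 log2 units or more left 4 falls in BL-41, 0 rises in Namalwa, and 1 rise and 2 falls in Jiyoye. The rises of DERL2 and SRP14 in BL-41 and the falls of DERL3 and DNAJC3 in Namalwa stayed. With genes of a mean of at least 100 alone, 2 rose in Namalwa, and CRELD2 in BL-41, EIF2AK3 in Namalwa and SEC61G, SEL1L and SPCS1 in Jiyoye gained a call. An SE 1.5 times larger left 1 rise and 2 falls in BL-41, 0 and 0 in Namalwa, 1 rise and 0 falls in Jiyoye, and 0 differences of BL-41 from Namalwa and 0 from Jiyoye. The authors' own mark of changed genes, added after the data were seen, left 1 rise and 3 falls in BL-41, 0 and 0 in Namalwa, and 0 rises and 1 fall in Jiyoye. Among genes of the group with a mean of at least 1000 in BL-41, an SE limit of 0.4, also added, left 5 over it, and a limit of 0.25 left 16.

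Centring on the median fold change lost no call and added SEC61G and SEL1L in Jiyoye. In that setting the result "MANF, BL-41 minus Jiyoye", which was not called, changed sign to 0.0021. No gene of the group that was called changed direction under any alternative run. Precision is limited by the spread between libraries, which was wide for the 17 genes named in BL-41, and recovered SE rest on the authors' p-values.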
